A study of Mus musculus with 9 samples.

Results

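The genes described here are 9 transcription factor genes: Spi1, Irf8, Runx1, Maf, Cebpa, Cebpb and Mef2c, known from the macrophage and microglia lineage, and Pou2f2 and Zbtb32, known mainly from lymphocytes. They were matched by gene name in the deposited table, and 8 of the 9 were found among its 40993 genes. Irf8 was not analysed here. The list was chosen by lineage knowledge and with earlier fold changes of these data in view. Pou2f2 and Zbtb32 were selected on their difference between the doses, and the values of all members, with the limma fit over all genes, are therefore given as a description and not as tests of the members. RNA was sequenced from BV2 cells, an immortalized mouse microglial cell line, in 9 libraries, of which 3 were from cells with no particles (non-treated control), 3 from 10 µg/ml MNPs@SiO2(RITC)-treated cells and 3 from 100 µg/ml MNPs@SiO2(RITC)-treated cells. The particles have a cobalt ferrite core in a silica shell that holds the dye rhodamine B isothiocyanate, and both treatments lasted 12 h. The sample labels write the doses as 0.01 and 0.1 µg/µl. BV2 is a single cell line grown without the other cells of the brain, and nothing in the labels says that the replicates came from separate cultures, so the spread given here is that between libraries and may be technical.

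Microglia and other macrophages owe their identity to a small set of transcription factors that act together on the same enhancers. PU.1, the product of Spi1, binds purine-rich sites and opens them for partners of the interferon regulatory factor, RUNX, C/EBP, MAF and MEF2 families. Runx1 and Cebpa act early, when the myeloid lineage is set, whereas Cebpb serves inflammatory and acute-phase genes, and Maf and Mef2c maintain the programs of mature tissue macrophages and microglia. Pou2f2 encodes Oct-2, an octamer-binding factor known best from B cells and also made by macrophages. Zbtb32 encodes a zinc finger repressor with a BTB domain, described in lymphocytes, where it restrains activation.

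Expression was deposited as FPKM, fragment numbers scaled by transcript length and by library size, so levels of different genes can be compared per length. Summed FPKM lay between 473547 and 522812 per library. The depth is not given by FPKM. From the steps between low values about 13.3 to 16.0 M (mega) fragments were inferred for each library. At these depths 70.9% to 75.4% of the low values lay within 0.25 of a whole fragment. The depths were chosen to bring these same values near whole fragments, and values placed at random would also often lie that near. The share is therefore no check of the depths, which are approximate. The macrophage character of the cells was seen in Cd68, a lysosomal glycoprotein, at 421 FPKM and in Csf1r, the receptor for macrophage colony-stimulating factor, at 142 FPKM in control cells. The homeostatic microglia markers were low or not seen, with Tmem119 at 2.24 FPKM, P2ry12 at 0.121 FPKM and Cx3cr1 at 0.0391 FPKM in control cells and Siglech listed at 0 in every library. The summed FPKM of 13 microglia and macrophage markers was 1258 to 1461 in control cells, 1242 to 1345 at 10 µg/ml and 1156 to 1361 at 100 µg/ml. The summed level stayed at or below 0.195 FPKM for 6 neuron markers, 1.01 for 6 astrocyte markers, 1.44 for 6 oligodendrocyte markers, 0.134 for 5 fibroblast markers and 2.17 for 6 T cell markers in every library. Of 5 endothelial markers, Kdr was at 65.7 FPKM in control cells, whereas Pecam1 was at 0.208, Cdh5 at 0.0557 and Cldn5 at 0. In bulk RNA, fewer cells that express a gene and less RNA per cell cannot be told apart.

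Spi1 stood far above the other factors, at 136 FPKM in control cells, and Zbtb32 was the lowest, at 2.75 FPKM. In control cells the order of the mean levels was Spi1, Runx1, Maf, Mef2c, Pou2f2, Cebpb, Cebpa and Zbtb32. Only Runx1 and Maf were neighbours whose libraries overlapped in this order. At 10 µg/ml the order was the same, and the libraries of Pou2f2 and Cebpb overlapped as well. At 100 µg/ml Cebpb stood above Pou2f2 with no overlap, and the libraries of Runx1, Maf and Mef2c each overlapped with those of the next gene in the order, which were those of Maf, Mef2c and Cebpb.

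**Figure D1:**
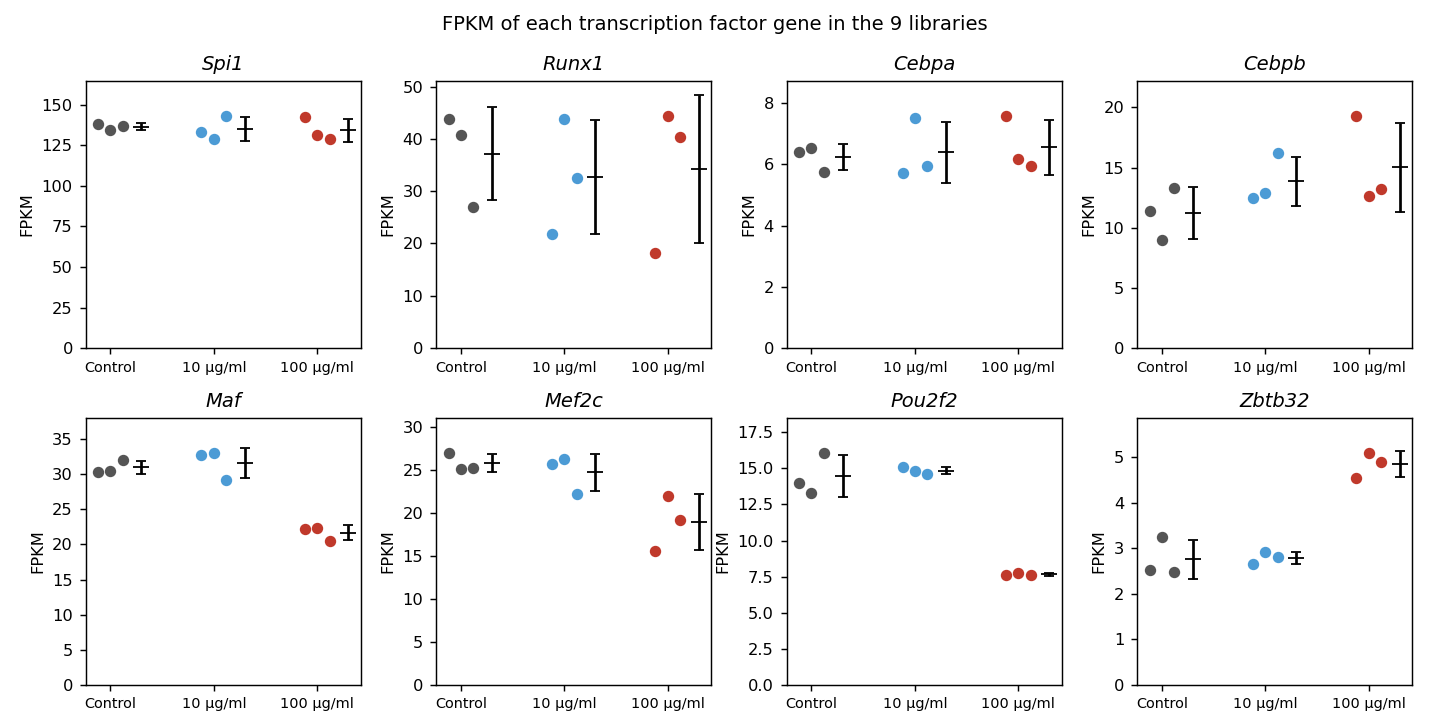
FPKM (y axis, from 0) of the 8 factor genes in each library of control cells and of cells treated at 10 and 100 µg/ml (x axis); points are libraries, and the black bar beside them is the mean ± SD (n = 3). Maf, Mef2c and Pou2f2 are lower and Zbtb32 is higher in all 3 libraries at 100 µg/ml than in any other library, whereas Runx1 ranges from 18.1 to 44.4 FPKM with no order by dose.

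Of the factors that set the myeloid lineage, Spi1, Runx1 and Cebpa had overlapping libraries in all groups. Spi1 (ENSMUSG00000002111, chr2:91082390-91115756, plus strand, GRCm38), which encodes PU.1, was at 138, 134 and 137 FPKM in control replicates 1, 2 and 3, at 133, 129 and 143 at 10 µg/ml, and at 142, 131 and 129 at 100 µg/ml. The means were 136 ± 1.98, 135 ± 6.75 and 134 ± 7.29 FPKM (SD, n = 3). The log2 fold change of FPKM + 1 between 100 µg/ml and control was -0.03 (SE 0.06), with a 95% interval from -0.16 to 0.10 in limma, so that any difference within this interval was beyond the precision of these libraries. Spi1 lay above 94.6% of the 11161 genes tested in its mean level, and its spread within groups was among the smallest, with only 13.5% of genes below it.

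Runx1 (ENSMUSG00000022952, chr16:92601466-92826149, minus strand), the DNA-binding partner of the beta subunit Cbfb, was at 43.8, 40.7 and 27.0 FPKM in control cells, at 21.9, 43.8 and 32.5 at 10 µg/ml, and at 18.1, 44.4 and 40.4 at 100 µg/ml. High and low libraries occurred in each group. The means were 37.2 ± 8.95, 32.7 ± 10.9 and 34.3 ± 14.2 FPKM (SD, n = 3), and the within-group spread of 0.53 on the log2 scale was larger than that of 98.0% of the genes tested. The log2 fold change between 100 µg/ml and control was -0.18 (SE 0.36, 95% interval -1.0 to 0.63), which leaves both a marked fall and a marked rise within the interval. The antisense gene Gm26626, which shares 106 of the 12025 exonic bases of Runx1, was at 0.137 FPKM or less in every library. The partner Cbfb was at 83.1 ± 4.57, 82.4 ± 3.54 and 82.6 ± 2.0 FPKM (SD, n = 3) in the same order of groups. Its libraries overlapped, and its adjusted p in limma was 0.957 at 100 µg/ml against control.

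Cebpa (ENSMUSG00000034957, chr7:35119293-35121926, plus strand), a basic leucine zipper factor of granulocyte and monocyte progenitors, was at 6.40, 6.54 and 5.76 FPKM in control cells, at 5.70, 7.52 and 5.94 at 10 µg/ml, and at 7.58, 6.16 and 5.93 at 100 µg/ml. The libraries of the 3 groups overlapped. The means were 6.23 ± 0.411, 6.39 ± 0.989 and 6.56 ± 0.897 FPKM (SD, n = 3), and the log2 fold change at 100 µg/ml against control was 0.06 (SE 0.12, 95% interval -0.21 to 0.32).

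Cebpb (ENSMUSG00000056501, chr2:167688915-167690418, plus strand) encodes the C/EBP factor that is induced by inflammatory signals. Its level was 11.4, 8.97 and 13.3 FPKM in control cells, 12.5, 12.9 and 16.2 at 10 µg/ml, and 19.3, 12.6 and 13.2 at 100 µg/ml. The highest library was 100 µg/ml replicate 1, while the other two at this dose lay within the ranges of both other groups. The means were 11.2 ± 2.17, 13.9 ± 2.07 and 15.0 ± 3.71 FPKM (SD, n = 3). On the log2 scale the fold change was 0.38 (SE 0.18, 95% interval -0.03 to 0.80) at 100 µg/ml and 0.29 at 10 µg/ml against control, and the within-group spread exceeded that of 91.1% of genes. The single exon of Cebpb shares 312 of its 1504 bases with an exon of Tmem189 on the other strand, a gene at 100 to 102 FPKM in control cells and 125 to 126 FPKM at 100 µg/ml (log2 fold change 0.31, adjusted p = 0.0104 in limma). Whether strand was kept and used in the estimate of FPKM is not given in the sources used here, and the part of Tmem189 reads in the Cebpb value was not tested.

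Cebpb was also set against its relatives in the C/EBP family. Cebpd, a relative that is induced early in the acute-phase response, was at 11.6, 10.2 and 9.10 FPKM in control cells, 9.36, 9.25 and 11.6 at 10 µg/ml, and 8.03, 5.73 and 5.84 at 100 µg/ml. All libraries at 100 µg/ml were below all others, with a log2 fold change of -0.59 against control (SE 0.14) that did not pass the threshold in limma (adjusted p = 0.0670). The ratio of Cebpb to Cebpd was 0.985, 0.880 and 1.46 in control cells, 1.33, 1.40 and 1.41 at 10 µg/ml, and 2.41, 2.21 and 2.26 at 100 µg/ml, so the highest dose did not overlap with the others. The ratio of Cebpb to Cebpa was 1.82 ± 0.469 in control cells, 2.21 ± 0.509 at 10 µg/ml and 2.28 ± 0.251 at 100 µg/ml (SD, n = 3), with overlapping libraries. These ratios were formed after their values could be seen and carry no test.

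Of the factors of mature macrophages and microglia, Maf and Mef2c were both lower at 100 µg/ml than in control cells and at 10 µg/ml. Maf (ENSMUSG00000055435, chr8:115682942-115707794, minus strand), the c-MAF basic leucine zipper factor of resident macrophages, was at 30.4, 30.5 and 32.1 FPKM in control cells, 32.7, 33.1 and 29.2 at 10 µg/ml, and 22.2, 22.4 and 20.5 at 100 µg/ml. The libraries at 100 µg/ml did not overlap with any other library, whereas those at 10 µg/ml enclosed the control range. The means were 31.0 ± 0.980, 31.6 ± 2.15 and 21.7 ± 1.06 FPKM (SD, n = 3), which put Maf at 100 µg/ml at 70.0% of control. The log2 fold change was -0.50 (SE 0.06, 95% interval -0.64 to -0.35) at 100 µg/ml and 0.03 at 10 µg/ml against control, and -0.52 between the doses. An antisense gene, Gm15655, shares 440 of the 8241 exonic bases of Maf on the other strand. It was at 29.7, 27.9 and 31.3 FPKM in control cells, 24.0, 27.0 and 25.2 at 10 µg/ml, and 6.94, 16.2 and 22.2 at 100 µg/ml, with a log2 fold change of -1.06 (SE 0.32) and an adjusted p of 0.119 in limma. How far reads of this gene enter the Maf value was not tested.

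Mef2c (ENSMUSG00000005583, chr13:83504034-83667079, plus strand), a MADS box factor that restrains inflammatory responses of microglia, was at 27.0, 25.1 and 25.2 FPKM in control cells, 25.7, 26.2 and 22.2 at 10 µg/ml, and 15.6, 22.0 and 19.2 at 100 µg/ml. The libraries at 100 µg/ml were all below the others, but replicate 2 was close to the lowest library at 10 µg/ml. The means were 25.8 ± 1.10, 24.7 ± 2.22 and 18.9 ± 3.23 FPKM (SD, n = 3), and Mef2c at 100 µg/ml was at 73.4% of control. Its log2 fold change was -0.44 (SE 0.12, 95% interval -0.70 to -0.18) at 100 µg/ml against control and -0.38 between the doses. Unlike Maf, Mef2c passed the adjusted threshold in limma in neither comparison. Its relative Mef2a was at 25.8 ± 0.944, 26.1 ± 1.25 and 23.9 ± 1.59 FPKM (SD, n = 3), with overlapping libraries and an adjusted p of 0.404 at 100 µg/ml against control.

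Pou2f2 (ENSMUSG00000008496, chr7:25087344-25159922, minus strand) had the largest difference of the 8 factors. Its level was 14.0, 13.3 and 16.1 FPKM in control cells, 15.1, 14.8 and 14.6 at 10 µg/ml, and 7.63, 7.76 and 7.59 at 100 µg/ml. Each library at 100 µg/ml lay far below all the others, and these 3 libraries differed from each other by less than its libraries in either other group did. The means were 14.5 ± 1.46, 14.9 ± 0.227 and 7.66 ± 0.0854 FPKM (SD, n = 3). Pou2f2 at 100 µg/ml was thus at 52.9% of control and 51.6% of the level at 10 µg/ml. In log2 terms the fold change was -0.83 (SE 0.07, 95% interval -0.99 to -0.67) at 100 µg/ml and 0.04 at 10 µg/ml against control, and -0.87 between the doses. Estimated from the depth and the mean length of its transcripts, 276 to 650 fragments per library lay behind these values. The neighbours that overlap with Pou2f2, a microRNA gene on the same strand and a long noncoding RNA on the other, were at 0 and at up to 0.264 FPKM, and the long noncoding RNA shares 0 exonic bases with it.

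Oct-2 acts in B cells with the coactivator encoded by Pou2af1, which was listed at 0 in all 9 libraries. Irf4, which works with PU.1 in B cells and in alternatively activated macrophages, was at 0.293 ± 0.0763 FPKM in control cells and 0.228 ± 0.0297 at 100 µg/ml (SD, n = 3), below the filter for testing. Of the 13 B cell genes listed, the receptor gene Cd22 was the only row above a mean of 1 FPKM, with 1.99 ± 0.761 in control cells and 1.49 ± 0.731 at 100 µg/ml (SD, n = 3; adjusted p = 0.639 in limma). Pou2f1, the ubiquitous relative that encodes Oct-1, is listed under a pair of identifiers. ENSMUSG00000026565 and ENSMUSG00000099187 each varied widely within groups, and neither passed the threshold (adjusted p = 0.466 and 0.464 at 100 µg/ml against control). Reads of the same locus may be split between both rows, so their levels are uncertain.

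The promoter of Pou2f2 is shown because this gene had the largest difference, and that of Zbtb32 because it was the factor that was higher at 100 µg/ml. Both are the 250 bases before a RefSeq start site in GRCm38.p6, written 5′ to 3′ on the strand of the gene, with matches to the motifs searched in capitals. The Pou2f2 sequence is chr7:25132461-25132710 on the minus strand, before a start site 27462 bases inside the gene as the deposited table places it. The Zbtb32 sequence is chr7:30598910-30599159 on the minus strand and ends 1 base before the deposited gene. RefSeq gives a second start site of Zbtb32, whose window (chr7:30592943-30593192) is not shown.
Pou2f2: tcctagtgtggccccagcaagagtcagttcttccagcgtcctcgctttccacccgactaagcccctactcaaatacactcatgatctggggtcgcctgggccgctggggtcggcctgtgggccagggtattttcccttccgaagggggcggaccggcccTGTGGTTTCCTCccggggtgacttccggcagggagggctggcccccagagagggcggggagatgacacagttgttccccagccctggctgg
Zbtb32: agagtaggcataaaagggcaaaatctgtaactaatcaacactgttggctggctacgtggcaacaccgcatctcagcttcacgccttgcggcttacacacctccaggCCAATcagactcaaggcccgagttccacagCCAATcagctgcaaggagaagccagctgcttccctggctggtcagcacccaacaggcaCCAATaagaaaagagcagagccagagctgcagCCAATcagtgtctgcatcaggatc

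The motifs searched on both strands were the octamer ATTTGCAT, the CCAAT box CCAAT, the PU box GAGGAA, the RUNX core TGTGGT and the C/EBP core TTGCNNAA. The capitals in the Pou2f2 sequence are a RUNX core followed directly by a PU box on the other strand. Among 32851 such windows of mouse genes in RefSeq, 14% held the RUNX core and 23.3% the PU box. The Zbtb32 sequence holds the CCAAT box 4 times on the strand shown, and the second window of this gene holds it 0 times and the RUNX core 1 time. The CCAAT box occurred in 33.8% of all windows, and 0.84% held 4 or more. RefSeq gave 10 windows for 6 of the members, Runx1, Cebpa, Cebpb, Mef2c, Pou2f2 and Zbtb32, and none of them held the octamer or the C/EBP core, which occurred in 1.6% and 9.56% of all windows. These matches describe letters in the windows and not binding.

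Zbtb32 (ENSMUSG00000006310, chr7:30589681-30598909, minus strand), the BTB zinc finger repressor, was the only factor of the 8 that was higher at 100 µg/ml with no overlap. Its level was 2.53, 3.25 and 2.48 FPKM in control cells, 2.65, 2.91 and 2.80 at 10 µg/ml, and 4.55, 5.10 and 4.90 at 100 µg/ml. The lowest library at 100 µg/ml was above the highest control library, and the libraries at 10 µg/ml lay within the control range. The means were 2.75 ± 0.431, 2.79 ± 0.129 and 4.85 ± 0.277 FPKM (SD, n = 3), or 176% of control at 100 µg/ml. The log2 fold change of FPKM + 1 was 0.65 (SE 0.10, 95% interval 0.42 to 0.87) at 100 µg/ml and 0.02 at 10 µg/ml against control, and 0.63 between the doses. Because 1 was added to low values, this understates the difference, and the log2 ratio of the mean FPKM was 0.82 against control. Only about 36 to 78 fragments per library lay behind these values.

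In limma, fitted over all genes, 3 of the 8 factors had an adjusted p under 0.05 between 100 µg/ml and control, with Zbtb32 higher and Pou2f2 and Maf lower. The same threshold was passed by 2.11% of all genes tested, of which 0.708% were higher and 1.41% lower (79 and 157 genes, or 240 and 273 once GC content and length were corrected for). Non-overlapping libraries were found for 4 of the 8 factors, the 3 above and Mef2c, and for 23.8% of all genes. Between the doses, the same 3 factors passed, where 0.851% of all genes did (0.215% higher and 0.636% lower), and the same 4 did not overlap, where 19.4% of all genes did not. Between 10 µg/ml and control 0 factors passed at the adjusted threshold, 0 had an unadjusted p under 0.05 and 0 had non-overlapping libraries, against 0%, 366 genes and 10.7% of all genes tested. The members were chosen with these contrasts known, so nothing is read from their counts. The 3 comparisons share libraries and are not independent of each other.

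**Figure D2:**
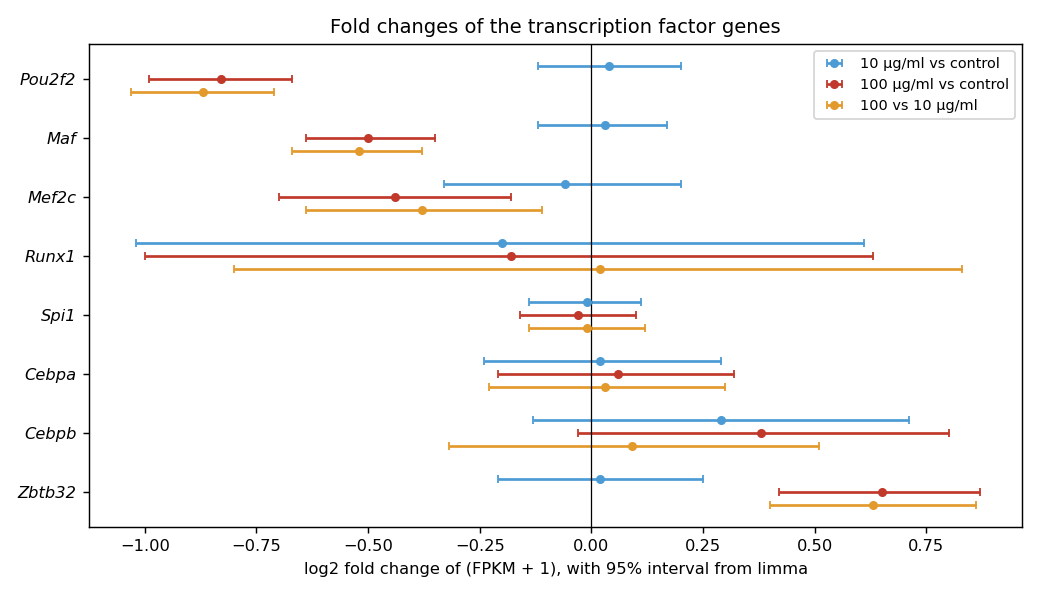
Log2 fold change of FPKM + 1 (x axis) of each factor gene (y axis) in the 3 comparisons, with 95% intervals from the limma fit over all genes. Values at 100 µg/ml run from -0.83 for Pou2f2 to 0.65 for Zbtb32 against control, the intervals of all 8 genes include 0 at 10 µg/ml, and that of Runx1 is the widest.

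With any single library left out, the log2 fold change between 100 µg/ml and control stayed between -0.52 and -0.46 for Maf, between 0.59 and 0.74 for Zbtb32 and between -0.89 and -0.76 for Pou2f2. The adjusted p moved past the threshold for Maf without control replicate 2 (log2 fold change -0.51), and for Zbtb32 without control replicate 1 (0.61), control replicate 3 (0.59), 100 µg/ml replicate 2 (0.62) or 100 µg/ml replicate 3 (0.64).

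Among relatives and cofactors of these factors, 3 of the genes tested changed at 100 µg/ml against control. Of 68 genes listed from the ETS, IRF, RUNX, MAF, C/EBP, MEF2, POU and BTB zinc finger families and their cofactors, 52 rows were tested. There 2 rose and 1 fell, which is 5.77% of the list beside 2.11% of all genes tested, and the median log2 fold change was -0.04, beside 0.00 for all genes. Zbtb17, which encodes the MYC partner MIZ-1, rose from 11.9 ± 0.227 to 15.7 ± 1.56 FPKM (SD, n = 3; log2 fold change 0.37, adjusted p = 0.0375). Cebpz, a CCAAT-binding protein that is no basic leucine zipper factor despite its name, rose from 47.3 ± 0.876 to 55.4 ± 2.1 FPKM (SD, n = 3; 0.22, adjusted p = 0.0472). Zbtb7b, the T helper lineage factor ThPOK, fell from 41.6 ± 1.47 to 31.1 ± 3.58 FPKM (SD, n = 3; -0.41, adjusted p = 0.0387). Between the doses 1 of the 52 fell and 0 rose, which is 1.92% beside 0.851% of all genes. Of the RUNX relatives, Runx3 was at 36.1 ± 0.236 FPKM in control cells and 40.3 ± 4.73 at 100 µg/ml (adjusted p = 0.423 in limma), and Runx2 was at 4.54 ± 1.40 and 4.37 ± 1.24 (adjusted p = 0.946; SD, n = 3). Under the 19 alternatives, several of which cannot alter a fold change, the log2 fold changes of Zbtb17, Cebpz and Zbtb7b kept their sign. The values were 0.31 to 0.45 for Zbtb17, 0.20 to 0.25 for Cebpz and -0.48 to -0.32 for Zbtb7b. The adjusted p was near the threshold, and 0 calls were left without any single library of control cells, any at 10 µg/ml or 100 µg/ml replicate 3, while 1 was left without 100 µg/ml replicate 2 and 4 genes were called without 100 µg/ml replicate 1.

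A second list held 77 other transcription factors of macrophages and microglia, such as those of the KLF, STAT, SMAD, nuclear receptor and early growth response families, of which 50 were tested. At the adjusted threshold in limma, 0 passed in any of the 3 comparisons. At an unadjusted p under 0.05 in limma there were 14 of the 50 at 100 µg/ml against control, beside 2160 of all 11161 genes tested. There was 1 of the 50 at 10 µg/ml against control, beside 366 of all genes, and 8 between the doses, beside 1594. The median log2 fold change at 100 µg/ml against control was -0.06. In that comparison 19 of the 50 had non-overlapping libraries, beside 23.8% of all genes.

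Genes that these factors are known to regulate in macrophages were mostly lower at 100 µg/ml. Of 57 listed, 46 were tested, and at 100 µg/ml against control 9 fell and 1 rose, which is 21.7% of the list beside 2.11% of all genes tested. The median log2 fold change was -0.20 with 39 of the 46 below 0, whereas the median of all genes was 0.00. Non-overlapping libraries were found for 27 of the 46, beside 23.8% of all genes. The factors were chosen together with this list and with earlier results in view, so the counts are a description.

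The genes that fell came from several functions. Of the complement subunits that microglia make, C1qa fell from 7.63 ± 0.721 to 3.69 ± 0.707 FPKM (SD, n = 3; log2 fold change -0.89, adjusted p = 0.00962 in limma) and C1qc from 83.3 ± 4.86 to 54.4 ± 7.52 (SD, n = 3; -0.61, adjusted p = 0.0161). Of the phagocyte NADPH oxidase, the PU.1 target Cybb fell from 217 ± 10 to 128 ± 26.4 FPKM (SD, n = 3; -0.78, adjusted p = 0.0257) and Ncf1 from 70.0 ± 1.90 to 59.0 ± 1.21 (SD, n = 3; -0.24, adjusted p = 0.0387). Both complement genes and both oxidase genes were lower in each library at 100 µg/ml than in each control library. Emr1, which encodes the macrophage surface protein F4/80, was at 199, 208 and 200 FPKM in control cells, 192, 193 and 189 at 10 µg/ml, and 117, 133 and 132 at 100 µg/ml (-0.67, adjusted p = 0.00224 in limma).

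Further genes that fell were the lysosomal protease gene Ctsc, from 202 ± 2.93 to 139 ± 5.48 FPKM (SD, n = 3; log2 fold change -0.54, adjusted p = 0.00224 in limma), and Mpeg1, the pore-forming perforin-2, from 61.6 ± 1.49 to 48.4 ± 4.02 (SD, n = 3; -0.35, adjusted p = 0.0370). The acute-phase genes Hp and Saa3, known targets of C/EBP factors, fell as well. Hp, which encodes the hemoglobin-binding protein haptoglobin, was at 9.51, 9.02 and 9.41 FPKM in control cells, 7.48, 7.45 and 8.79 at 10 µg/ml, and 3.60, 2.66 and 4.13 at 100 µg/ml (-1.22, adjusted p = 0.00351 in limma). Saa3 fell from 357 ± 28.7 to 228 ± 36.0 FPKM (SD, n = 3; -0.65, adjusted p = 0.0285 in limma). The integrin subunit gene Itgb2 was the one that rose, from 48.5 ± 2.06 to 60.6 ± 1.31 FPKM (SD, n = 3; 0.32, adjusted p = 0.0402 in limma). Between the doses 6 of the 46 fell and 0 rose, which is 13% beside 0.851% of all genes. The 6 were Ctsc, Ncf1, Emr1, Hp, C1qa and C1qc, with adjusted p from 0.00598 to 0.0459 in limma. At 10 µg/ml against control 0 passed in limma. There 2 of the 46 had an unadjusted p under 0.05, beside 366 of all 11161 genes tested.

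**Figure D3:**
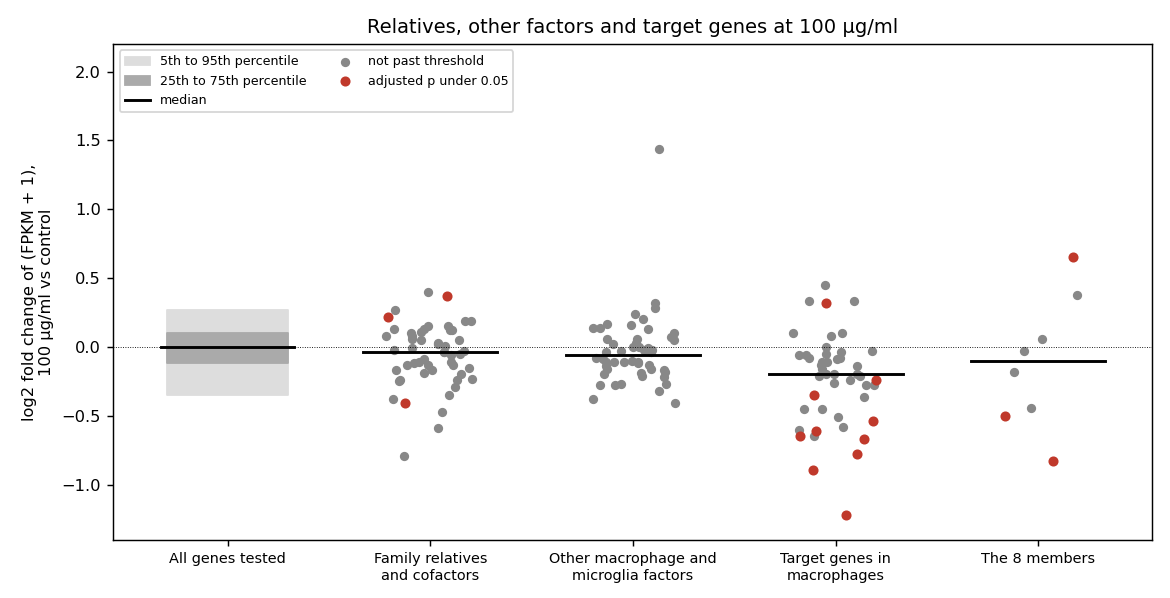
Log2 fold change of FPKM + 1 at 100 µg/ml against control (y axis) for all genes tested (grey bands, 5th to 95th and 25th to 75th percentile), the tested genes of the 3 lists and the 8 factors (points, red where the adjusted p was under 0.05), with black lines at the medians. The median of the target genes is -0.20, and those of relatives and other factors are -0.04 and -0.06.

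Ctsc, Emr1 and Hp were called under each of the 19 alternatives at 100 µg/ml against control, the others under 8 to 17 of them. Of the target genes, 10 were called with all libraries, but 4, 3 and 5 without control replicate 1, 2 and 3, 5 and 6 without replicates 1 and 3 at 10 µg/ml, and 4 without 100 µg/ml replicate 3.

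By its profile over the 9 libraries, Pou2f2 was nearest to Herpud1, Pim2, Cd83, Pck2 and Mettl1. Likeness was measured as the mean absolute difference between log2(FPKM + 1) values centred on each gene's mean, for which the median over all genes tested was 0.38 against Pou2f2. Herpud1, an endoplasmic reticulum stress gene, differed by 0.05 and was at 46.3, 48.6 and 26.4 FPKM on average in control cells, at 10 µg/ml and at 100 µg/ml. The kinase gene Pim2 differed by 0.09 (18.1, 17.9 and 8.34 FPKM). Cd83, a surface protein of activated antigen-presenting cells, differed by 0.10 (3.42, 3.22 and 1.45 FPKM), Pck2, the mitochondrial phosphoenolpyruvate carboxykinase, by 0.10 (21.3, 20.1 and 12.5 FPKM), and Mettl1, a tRNA methyltransferase, by 0.11 (16.8, 17.5 and 10.7 FPKM).

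Zbtb32 was nearest to Txnip, Oasl1, Atg9b, Atp13a4 and Ankrd33b, where the median over all genes was 0.29. Txnip, the thioredoxin-interacting protein, differed by 0.08 and was at 93.6, 108 and 155 FPKM on average in the same order of groups. Oasl1, an interferon-stimulated gene, differed by 0.09 (32.9, 35.6 and 56.6 FPKM) and the autophagy gene Atg9b by 0.09 (6.39, 6.83 and 10.1 FPKM). Atp13a4, a transport ATPase, differed by 0.10 (12.5, 13.5 and 19.9 FPKM), as did Ankrd33b (4.17, 4.69 and 7.35 FPKM). These genes were picked for their likeness, and no test was made of it.

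**Figure D4:**
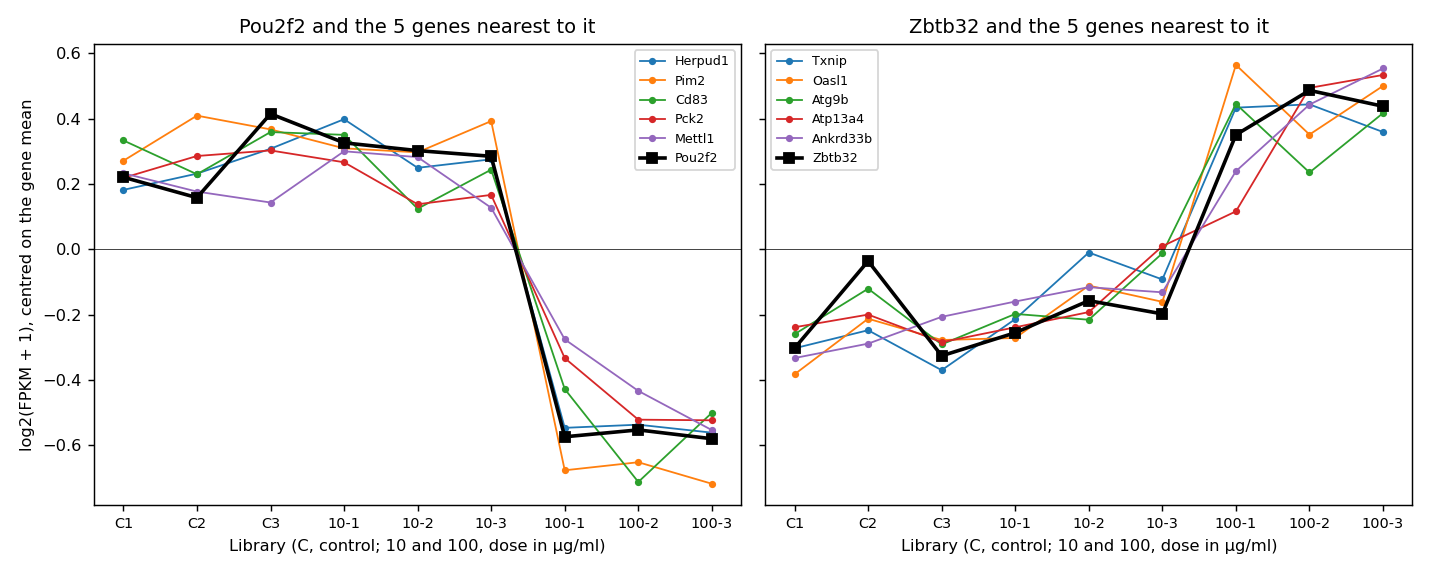
Log2(FPKM + 1) centred on the gene mean (y axis) in each of the 9 libraries (x axis; C, control; 10 and 100, dose in µg/ml) for Pou2f2 and Zbtb32 (black) and the 5 genes nearest to each (colours). The mean absolute difference from the black line runs from 0.05 to 0.11 for Pou2f2 and from 0.08 to 0.10 for Zbtb32.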

How the data were processed

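The authors aligned reads with TopHat and deposited FPKM values estimated with Cufflinks 2.1.1 on Ensembl release 77 (GRCm38) from libraries made after oligo(dT) selection. The methods name a stranded kit and another kit that is not called stranded. No counts were used, and depth is approximate. The authors' comparisons were made with Cuffdiff, which was not rerun because it needs alignments. Groups were taken from the labels, and no per-sample column was left out.

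The test was limma 3.58.1 (R 4.3.3) on log2(FPKM + 1), for the 11161 genes that averaged 1 FPKM or more across libraries (lmFit, eBayes with trend, all 3 groups in one fit, Benjamini-Hochberg adjustment, threshold 0.05), a procedure checked on simulated data. Tables and figures were made with Python 3.11.15, pandas 2.3.3, numpy 2.4.6 and matplotlib 3.10.9. The members, the gene lists and the rule for naming genes were chosen with earlier results of these data known. Named were all members, list genes with an adjusted p under 0.05 in any comparison, Cbfb, Pou2af1, Cebpd, Mef2a, Pou2f1, Irf4, Runx2, Runx3, and the 5 genes most like Pou2f2 and Zbtb32. Some genes that this rule covers are not reported here. Marker genes are from separate lists, and Gm15655, Tmem189, the marker genes shown and Gata3 were picked after their values were seen. Overlapping exons and transcript lengths are from GENCODE M21, which held 40036 of the identifiers, and promoters are from RefSeq (GRCm38.p6). Alternatives were pseudocounts of 0.1 and 0.01, no filter and a filter at 5 FPKM, quantile and median-of-ratios rescaling, a replicate block, eBayes without trend, only the 6 libraries compared, each library left out, and a loess correction for GC content and length (span 0.5), chosen after seeing the data.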

Additional observations from a re-analysis of the deposited data

How the results depend on the processing

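Of 477 recomputed fold changes of single members, 467 moved by less than the spread between replicates and 10 by more. The 10 were all of Pou2f2 or Zbtb32, with a smaller pseudocount or as a ratio of mean FPKM. Of the called values 0 reversed. Part of the 467 could not move at all. Filters, the block and the eBayes setting act on the genes tested or on the error, and not on a fold change. Dropping libraries of the group outside a comparison, singly or together, also leaves its fold change as it was. The spread was each gene's own, which was wide for Runx1. Its fold change at 100 µg/ml against control went from -0.18 to 0.21 without 100 µg/ml replicate 1 and was still counted among the 467. Counts of calls changed with the settings. At 100 µg/ml against control the 236 genes called became 22 with only the 6 libraries compared, 513 with the GC and length correction, and 31 to 539 with single libraries left out. Between the doses the 95 genes became 6, 194, and 8 to 191 in the same order. At 10 µg/ml against control the 0 calls became 4 with no filter on low values, 1 with only 6 libraries, and 0 to 2 with single libraries left out. The 3 members called became 1 in both comparisons with only the 6 libraries compared, 2 to 3 with single libraries left out at 100 µg/ml against control, and 1 to 3 between the doses. The 1 left was Pou2f2. Between the doses the call of Maf was lost without 10 µg/ml replicates 1 or 2 or 100 µg/ml replicate 3, and that of Zbtb32 without any library except control replicate 2 and 100 µg/ml replicate 1, and with no filter on low values.

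Correlations of the deviations ran from -0.09 to 0.15 for same-numbered libraries and from -0.17 to 0.14 for different-numbered ones. Between control and 100 µg/ml they were 0.15, 0.03 and 0.10 for the same numbers and -0.17 to 0.11 for different numbers. Whether the replicate numbers mark a pairing is not clear from these values. With a replicate block, 106 genes were called at 100 µg/ml against control and 13 between the doses, and the members called between the doses became 1. Relatives went to 1 and 0 calls in these comparisons, and target genes between the doses to 3.

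Relatives called at 100 µg/ml against control (3) became 1 with no filter, 1 without the trend, 0 with 6 libraries, 5 with the GC and length correction and 0 to 4 with single libraries left out. Between the doses (1) they became 0 without the trend, 0 with 6 libraries and 0 to 3 with single libraries left out. Other factors (0) became 1 without the trend and 2 with the GC and length correction against control, with 0 to 1 when single libraries were left out. Between the doses they became 1 at a pseudocount of 0.01 and 1 without the trend. Target genes against control (10) became 6 with no filter, 3 with 6 libraries, 18 with the GC and length correction and 3 to 13 with single libraries left out, and between the doses (6) they became 0, 10 and 1 to 11 with 6 libraries, the correction and single libraries left out. The causes were not tested. The median of the target genes stayed between -0.24 and -0.16 against control. Zbtb32 rested on the fewest fragments of the members, about 36 to 78 per library by the approximate depths. What depth contributed to the loss of its calls was not tested.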

Other observations

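Gata3, a zinc finger factor of T helper cells that was among the other transcription factors listed, was picked after its values were seen. It was at 3.15, 2.70 and 2.84 FPKM in control cells, 3.80, 16.4 and 5.74 at 10 µg/ml, and 15.7, 8.12 and 6.70 at 100 µg/ml. All 6 libraries of treated cells lay above all control libraries, and the libraries at both doses overlapped. The log2 fold change at 100 µg/ml against control was 1.44 (SE 0.44), which did not pass the threshold in limma (adjusted p = 0.129).

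Of the 13 microglia and macrophage markers, 9 were tested at 100 µg/ml against control. All 9 had a log2 fold change below 0, from -0.65 to -0.03, whereas the median of all genes was 0.00. The summed level of the 14 rows of B cell genes was 2.99 to 4.16 FPKM in control cells, 3.25 to 4.23 at 10 µg/ml and 1.65 to 3.34 at 100 µg/ml. These ranges overlap, and 5 of these rows were at 0 in every library. The largest part of the sum was Cd22, the only row above a mean of 1 FPKM, whose libraries overlapped between control and 100 µg/ml.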
